A study of Rattus norvegicus with 25 samples.

Results

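The genes described here are 47 genes of DNA replication and mitosis, followed across the esophageal epithelium of 25 rats. They were taken by name from a fixed list, which was chosen with earlier results of these data known. Their probes were named through the RefSeq accession that the array files give for each probe. Of the 47, 42 had a named probe and all 42 were tested, among 12343 genes tested in all. Top2a, Melk, Bub1b, Cenpe and Mcm5 had no matched probe and are not analysed here. A gene was tested when its probe was well above background, as the scanner software calls it, on at least 5 of the 25 arrays. That was the case on all arrays for 40 of the members, on 22 arrays for Chek1 and on 19 for Rrm1.

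The animals were male F344 rats in 5 groups of 5, and each rat gave 1 array. Control rats had the normal diet and no carcinogen. NMBA rats had the same diet and N-nitrosomethylbenzylamine (NMBA), a nitrosamine that induces tumours of the rat esophagus. The other groups received NMBA together with alpha-tocopherol, delta-tocopherol or a gamma-enriched tocopherol preparation, and are called alpha, delta and gamma rats below. Tocopherols are forms of vitamin E. Delta-tocopherol carries fewer methyl groups on its ring than gamma-tocopherol, which carries fewer than alpha-tocopherol. The labels state no ages, doses, routes or times. The design asks what NMBA changed, and how rats given each tocopherol with NMBA differed from rats given NMBA without it.

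A dividing cell passes through an ordered programme. Before and during S phase it raises its supply of deoxynucleotides, loads the MCM helicase on origins (licensing) and copies its DNA at forks that carry the sliding clamp PCNA. In G2 and M phase it makes B-type cyclins, the kinases that drive mitosis, kinetochore and spindle proteins, and the anaphase promoting complex that ends mitosis. In esophageal epithelium, division is the work of the basal layer, and cells that leave it differentiate as they move up. Transcription of the S phase genes is classically controlled by E2F factors, and that of the G2 and M phase genes by the MuvB complex at the cell cycle homology region (CHR) together with NF-Y at CCAAT boxes.

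The members were placed in 6 role groups. Nucleotide supply held 5 tested genes and replication licensing and fork held 11, and these 16 are called the replication members. The 26 mitotic members were 8 cyclin, kinase and Foxm1 genes, 3 genes of the anaphase promoting complex and securin, 6 of kinetochore and spindle checkpoint, and 9 of spindle, chromosome and cytokinesis.

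RefSeq promoters (GRCr8), from 250 bases before to 50 bases after the start of each gene, were at hand for 34 of the 42 members. Those of 4 members are shown. Tyms and Hmmr passed the test among 5 groups, and Mcm3 is a licensing gene with a comparatively large NMBA difference. Prc1 is the member whose level followed the rest of the list most closely. The promoter of Bub1, which was called in gamma rats against NMBA, is not shown. Capitals mark matches, on either strand, to the searched letters: TTTGAA for the CHR, CCAAT for the NF-Y box, and TTTCCCGC, TTTGGCGC, TTTCGCGC or TTTGCCGC for E2F.
Tyms (chr9:120776034-120776333, minus strand): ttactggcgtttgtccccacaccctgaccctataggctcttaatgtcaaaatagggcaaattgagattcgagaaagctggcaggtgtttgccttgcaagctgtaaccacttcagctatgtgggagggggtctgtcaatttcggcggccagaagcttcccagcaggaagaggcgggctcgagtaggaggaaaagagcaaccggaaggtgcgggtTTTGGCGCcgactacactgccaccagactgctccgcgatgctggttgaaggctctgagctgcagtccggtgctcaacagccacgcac
Mcm3 (chr9:30733697-30733996, minus strand): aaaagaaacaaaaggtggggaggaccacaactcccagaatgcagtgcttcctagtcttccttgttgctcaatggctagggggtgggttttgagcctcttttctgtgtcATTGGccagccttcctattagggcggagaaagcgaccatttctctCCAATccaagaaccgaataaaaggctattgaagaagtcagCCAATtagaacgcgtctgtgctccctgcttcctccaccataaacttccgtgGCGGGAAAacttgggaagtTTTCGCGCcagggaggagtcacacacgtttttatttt
Hmmr (chr10:25665166-25665465, minus strand): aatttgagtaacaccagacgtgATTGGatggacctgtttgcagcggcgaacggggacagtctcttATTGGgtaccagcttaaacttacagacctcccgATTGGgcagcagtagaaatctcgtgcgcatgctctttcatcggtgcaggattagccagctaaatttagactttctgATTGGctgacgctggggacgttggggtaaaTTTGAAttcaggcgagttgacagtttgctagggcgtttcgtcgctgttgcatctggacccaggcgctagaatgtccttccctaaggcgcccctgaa
Prc1 (chr1:143659231-143659530, plus strand): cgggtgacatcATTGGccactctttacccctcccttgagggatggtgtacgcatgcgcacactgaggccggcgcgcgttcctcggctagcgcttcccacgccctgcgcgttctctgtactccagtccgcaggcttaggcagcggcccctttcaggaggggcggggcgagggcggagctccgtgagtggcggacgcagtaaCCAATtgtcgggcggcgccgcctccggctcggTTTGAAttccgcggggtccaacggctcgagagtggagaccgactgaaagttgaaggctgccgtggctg

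In the Tyms promoter the E2F match began 37 bases before the start, and in Mcm3 an E2F match began 6 bases before it. In Hmmr and Prc1 the CHR match began 46 and 18 bases before it, with an NF-Y match at 76 bases in Hmmr and at 50 bases in Prc1. Over the members with a promoter, E2F letters were found in 7 of 13 replication members (53.8%) and 1 of 21 mitotic members (4.76%), Cdk1, against 2.14% of all 33469 promoters in the table. CHR letters were found in 16 of 21 mitotic members (76.2%) and 1 of 13 replication members (7.69%), Mcm2, against 18.3% of all promoters. NF-Y letters were in 76.2% of mitotic members, 46.2% of replication members and 37.5% of all promoters. No match of any of the 3 kinds was found in the window of Bub1, Aurka, Tk1, Dut or Fen1. For members the first listed promoter of each gene was searched, whereas the share over all promoters counts every entry, so the units differ. A match is a stretch of letters and not a measured binding site.

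**Figure D1:**
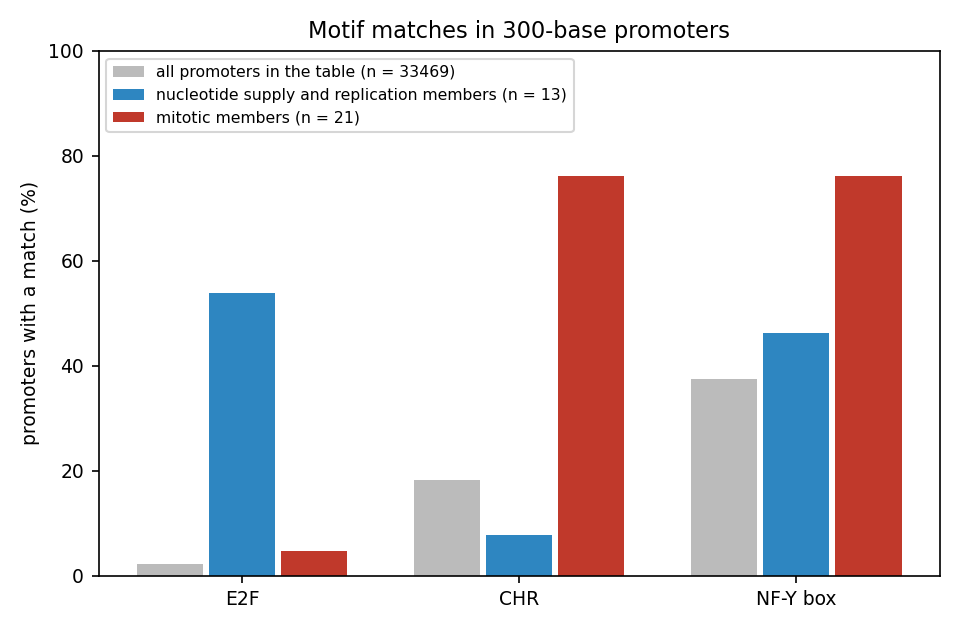
Share of 300-base promoters (y axis, %) with at least 1 match to E2F, CHR or NF-Y box letters, for all promoters in the table, the 13 replication members and the 21 mitotic members that had a promoter. E2F matches stood at 53.8% in replication members and 4.76% in mitotic members, and CHR matches at 7.69% and 76.2%.

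Levels are given as log2 signal relative to the 75th percentile of the rat's own array, so a level of 0 equals that percentile and a difference of 1 is a 2-fold change. Between 70.6% and 79.8% of spots on an array were well above background and 0 were saturated. The arrays lay on 4 slides that held the groups unevenly. Slide 1 held all alpha rats and delta rats 1 to 3, slide 2 held delta rats 4 and 5, all gamma rats and Control rat 1, slide 3 held Control rats 2 to 5 in one row and NMBA rats 1 to 4 in the other, and slide 4 held NMBA rat 5. No slide held both NMBA and tocopherol rats. The samples, labelled epithelium, carried keratinocyte genes well above background on all arrays, and also all 9 fibroblast markers on all arrays and 9 of 10 muscle markers. In such bulk samples, fewer dividing cells and less RNA per cell cannot be told apart.

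Differences between groups were small for most members beside the spread between rats. The share of a member's variance that lay between the 5 groups had a median of 25.2% (7.10% in Ube2c to 69.7% in Tyms), and over all genes tested the median was 23.8%. The SD within groups had a median of 0.472 for members and 0.327 for all genes. Members spanned a median of 1.81 log2 units over the 25 rats. In limma's test of any difference among the 5 groups, 2 of 42 members passed at an adjusted p under 0.05 (7% of all genes did): Tyms (adjusted p = 0.00909) and Hmmr (adjusted p = 0.0251). Without NMBA rat 1 or NMBA rat 2 the adjusted p of Hmmr was 0.0619 or 0.0613.

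Tyms encodes thymidylate synthase, which makes the thymidylate that DNA synthesis needs. Its level was -1.83, -2.05, -2.12, -2.29 and -2.21 in Control rats 1 to 5, and -1.60, -1.63, -2.0, -1.82 and -1.47 in NMBA rats 1 to 5. It was -1.47, -1.59, -1.62, -0.98 and -1.47 in alpha rats, -1.27, -1.54, -1.14, -1.52 and -1.13 in delta rats, and -1.52, -1.62, -1.07, -1.43 and -1.40 in gamma rats. Every tocopherol rat lay above every Control rat, while NMBA rats overlapped with Control and with each tocopherol group. Over all genes, groups did not overlap in 3.73% for alpha, 3.4% for delta and 3.36% for gamma against Control.

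Against Control, Tyms rose in each tocopherol group, and it was the 1 member called there in each. The rise was 0.67 ± 0.14 log2 units (moderated SE, n = 5 per group), or 1.60-fold, in alpha rats (limma, adjusted p = 0.0254; 0.818% of genes were called). It was 0.78 ± 0.14, or 1.72-fold, in delta rats (adjusted p = 0.0117; 0.194% of genes were called) and 0.69 ± 0.14, or 1.62-fold, in gamma rats (adjusted p = 0.0245; 0.632% of genes were called). These comparisons share the Control rats. In NMBA rats the difference from Control was 0.40 ± 0.14 (limma, adjusted p = 0.217), and tocopherol rats lay above NMBA rats by 0.28, 0.39 and 0.30 for alpha, delta and gamma, none past the test.

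These calls were close to the threshold. With slide as a block the Tyms differences were 0.40, 0.51 and 0.43 for alpha, delta and gamma (limma, adjusted p = 0.548, 0.594 and 0.984), and Control rat 1 was the Control rat that shared a slide with tocopherol rats. Leaving out single rats took the adjusted p above 0.05 as follows. For alpha it was 0.0539 at 0.68 without alpha rat 1, 0.0667 at 0.56 without alpha rat 4, 0.0955 at 0.63 without Control rat 4 and 0.0717 at 0.65 without Control rat 5. For delta it was 0.058 at 0.73 without delta rat 5 and 0.0584 at 0.73 without Control rat 4. For gamma it was 0.0514 at 0.61 without gamma rat 3, 0.0562 at 0.69 without gamma rat 5 or Control rat 3, 0.0828 at 0.64 without Control rat 4 and 0.0736 at 0.67 without Control rat 5. The difference stayed positive in each case. Without alpha rat 3, Gins2 joined Tyms in alpha rats, which made 2 members.

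The other 4 nucleotide genes were not called in any comparison. Rrm2, the regulated subunit of ribonucleotide reductase, stood at -0.12, 1.0, 1.0, -0.27 and 0.76 in Control rats and at 1.03, 0.92, 1.02, 1.26 and 1.39 in NMBA rats. It ranged from 0.07 (alpha rat 3) to 1.26 in alpha rats, from 0.96 to 1.40 in delta rats and from 0.65 to 1.48 in gamma rats. Control rats 1 and 4 were the lowest of all 25, and the NMBA difference of 0.65 ± 0.25 did not pass (limma, adjusted p = 0.255). Dut, which removes dUTP, was higher in every delta rat than in every Control rat, by 0.54 ± 0.19 (adjusted p = 0.279).

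The replication licensing and fork genes were not called in any comparison either. Pcna, the sliding clamp, was at 1.69, 1.92, 1.68, 1.51 and 1.95 in Control rats and at 2.31, 1.94, 1.26, 1.83 and 2.33 in NMBA rats. It was at 2.33, 1.92, 1.32, 2.38 and 2.02 in alpha rats, 1.97, 2.03, 2.05, 1.80 and 2.03 in delta rats, and 1.62, 1.47, 1.92, 1.89 and 1.47 in gamma rats. NMBA rats spread widely around the Control range, with rat 3 below it and rats 1 and 5 above. Mcm2, a subunit of the MCM helicase, was at -0.81, -0.90, -1.01, -0.48 and -0.83 in Control rats and at -0.25, -0.67, -0.75, -0.26 and -0.33 in NMBA rats. It ranged from -0.74 to 0.00 in alpha rats, from -0.97 to -0.07 in delta rats and from -1.08 to -0.28 in gamma rats. Of the 5 Control rats, 4 lay below all NMBA rats, and Control rat 4 lay among them, so the groups overlapped.

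For NMBA against Control, none of the 42 members passed (limma, 0 called; 1.55% of all genes were), and 8 were higher at an unadjusted p under 0.05, where 8.39% of all genes were. All 8 were replication members: Tyms, Rrm2, Gins2, Cdc6, Mcm3, Fen1, Mcm4 and Chek1. Chek1 was well above background in 3 of 5 Control rats and 4 of 5 NMBA rats. Rrm1, which with Chek1 sets the top of the range below, was so in 3 and 2. The fitted difference was above 0 in 16 of 16 replication members, with a median of 0.43 and a range of 0.18 to 0.75. It was above 0 in 10 of 26 mitotic members, with a median of -0.03 and a range of -0.61 (Bub1) to 0.25 (Cdk1). Over all genes 57.4% of differences were above 0 and the median was 0.05. These counts by sign were not planned, and members of a group are not independent in them (mean r 0.38 over pairs of replication members). Gins2, a subunit of the replicative helicase, was the 1 member whose NMBA and Control rats did not overlap, at 0.48 ± 0.19 (adjusted p = 0.276), and 4% of all genes had groups that did not overlap.

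Within slide 3 alone (Control rats 2 to 5, NMBA rats 1 to 4) all 16 replication members were above 0 and none was called. There the median over all 42 members was -0.06, against 0.17 with all rats, and the array row could not be told apart from the group. The rats of slide 3 are part of the comparison above, so this is no independent repeat of it. Without NMBA rat 3, Chek1 was called, and no other member was under any exclusion of 1 rat in this comparison. T and NK cell markers were higher in the same NMBA rats. Of 15 tested, 9 rose against Control, and their mean score (log2 level minus the mean over 25 rats) ran from 0.18 to 1.55 in NMBA rats and from -0.66 to 0.12 in Control rats. Fibroblast markers had a median difference of -0.63 with 0 of 9 called. Their part in the difference of the replication members was not tested.

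Among mitotic members, Hmmr and Bub1 carried the calls. Hmmr encodes a spindle protein that also binds hyaluronan. Its level was -4.10, -4.06, -3.89, -4.91 and -4.06 in Control rats and -5.19, -4.96, -4.01, -4.36 and -4.49 in NMBA rats. It was -5.16, -3.98, -4.43, -2.39 and -3.78 in alpha rats, -3.44, -3.48, -2.75, -3.21 and -2.63 in delta rats, and -2.78, -3.13, -3.16, -3.72 and -3.24 in gamma rats. Every delta and gamma rat lay above every NMBA rat and every Control rat, while alpha rats ran from near the lowest of all to the highest.

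Against NMBA, Hmmr rose by 1.5 ± 0.35 log2 units, or 2.82-fold, in delta rats (limma, adjusted p = 0.0297), where it was the 1 member called of 42. In that comparison 2.49% of all genes were called, 0.47% were called higher, and 5.7% had groups that did not overlap. In gamma rats it rose by 1.39 ± 0.35, or 2.63-fold (limma, adjusted p = 0.0152), where 7.05% of all genes had groups that did not overlap. In alpha rats the difference was 0.65 ± 0.35 (adjusted p = 0.327), and 0 of 42 members were called against NMBA, where 3.82% of all genes were. At an unadjusted p under 0.05 there were 0 members too, while 7.31% of all genes were higher and 11.1% lower. Against Control, Hmmr differed by 1.1 ± 0.35 in delta rats and 1.0 ± 0.35 in gamma rats (adjusted p = 0.221 and 0.156), with no overlap in either.

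Bub1 encodes a kinase of the spindle checkpoint. Its level was -1.20, -1.37, -1.48, -1.81 and -1.27 in Control rats and -2.61, -2.70, -1.61, -0.68 and -2.57 in NMBA rats. It was -2.08, -2.02, -1.91, -0.38 and -2.29 in alpha rats, -1.84, -0.99, -0.45, -1.43 and -1.17 in delta rats, and -0.60, -0.69, -1.14, -1.03 and -0.50 in gamma rats. NMBA rats 1, 2 and 5 lay below all Control, delta and gamma rats, but NMBA rat 4 lay among the highest, so groups overlapped. Bub1 rose by 1.24 ± 0.36, or 2.36-fold, in gamma rats against NMBA (limma, adjusted p = 0.0322). It made 2 members called of 42 in that comparison together with Hmmr, where 8.95% of all genes were called and 1.59% were called higher. The delta difference was 0.86 ± 0.36 (adjusted p = 0.175).

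**Figure D2:**
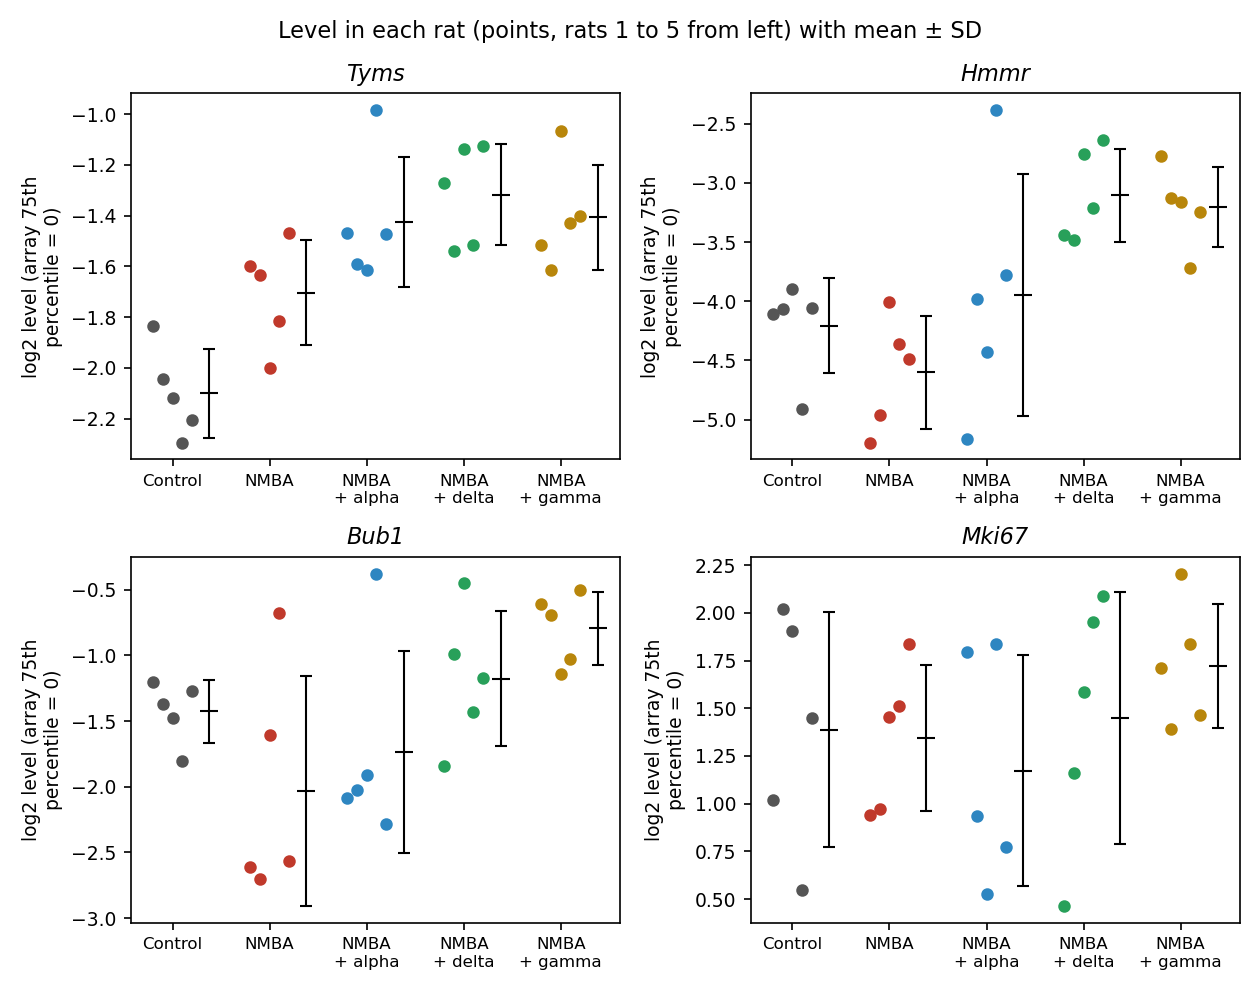
Level of Tyms, Hmmr, Bub1 and Mki67 in each rat (y axis, log2 signal with the array's 75th percentile at 0), by group (x axis); points are rats 1 to 5 from left to right, and bars are the mean ± SD of 5 rats. Tocopherol rats lie above all Control rats in Tyms, delta and gamma rats lie above all NMBA and Control rats in Hmmr, and the groups overlap in Mki67.

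Leaving out some single rats ended the Hmmr and Bub1 calls, and none passed with slide as a block. The differences stayed positive without each rat, at 1.35 to 1.65 for Hmmr in delta rats. In gamma rats they ran from 1.25 to 1.54 for Hmmr and from 1.07 to 1.58 for Bub1. For Hmmr in delta rats the adjusted p was 0.06 at 1.59 without delta rat 2, 0.0649 at 1.41 without delta rat 3 and 0.0625 at 1.38 without delta rat 5. It was 0.0808 at 1.35 without NMBA rat 1, 0.0772 at 1.41 without NMBA rat 2 and 0.0571 at 1.65 without NMBA rat 3. For Hmmr in gamma rats it was 0.0552 at 1.25 without NMBA rat 1, and the call held without each other rat. More members were called in some exclusions. Without NMBA rat 4 there were 2 in delta rats (Bub1 and Hmmr, both higher) and 4 in gamma rats (Aurkb, Bub1 and Hmmr higher, Cdt1 lower). Without NMBA rat 3 there were 3 in gamma rats (Bub1 and Hmmr higher, Chek1 lower). With all rats, 2.49% of all genes were called in delta and 8.95% in gamma rats against NMBA. The shares in the fits without a rat are not given here, so these counts cannot be set against them.

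For Bub1 in gamma rats the adjusted p was 0.0753 at 1.19 without gamma rat 1, 0.0703 at 1.21 without gamma rat 2 and 0.07 at 1.17 without gamma rat 5. It was 0.0987 at 1.1 without NMBA rat 1, 0.0965 at 1.07 without NMBA rat 2 and 0.0743 at 1.11 without NMBA rat 5. With slide as a block the differences were 1.58 (Hmmr, delta), 1.30 (Hmmr, gamma) and 0.83 (Bub1, gamma), and none passed (limma, adjusted p = 0.663, 0.998 and 0.998). In that fit NMBA and tocopherol rats are linked through Control rats alone, so it cannot decide whether the calls came from slide or group.

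Mki67, the gene of the proliferation marker Ki-67, overlapped between all 5 groups by the probe used. Its level was 1.02, 2.02, 1.91, 0.55 and 1.45 in Control rats and 0.94, 0.97, 1.45, 1.51 and 1.84 in NMBA rats. It was 1.80, 0.94, 0.53, 1.84 and 0.77 in alpha rats, 0.46, 1.16, 1.58, 1.95 and 2.09 in delta rats, and 1.71, 1.39, 2.21, 1.83 and 1.47 in gamma rats. The difference from NMBA was -0.17, 0.11 and 0.38 for alpha, delta and gamma, each ± 0.32. The other 2 kept Mki67 probes gave 0.41 and -0.02 for alpha, 0.70 and 0.51 for delta, and 0.64 and 0.39 for gamma. The NMBA difference from Control was -0.05 ± 0.32, with a 95% interval of -0.71 to 0.62.

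Cdk1, the kinase that drives entry into mitosis, stood at 1.32, 1.89, 2.10, 0.90 and 1.86 in Control rats and at 1.55, 1.48, 1.82, 1.81 and 2.66 in NMBA rats. It ranged from 1.05 to 2.20 in alpha rats, from 1.86 to 2.18 in delta rats and from 1.45 to 2.29 in gamma rats. Control rat 4 was the lowest and NMBA rat 5 the highest of all 25, and the groups overlapped. Ccnb1, its cyclin B1 partner, stood at 0.01, 0.44, 0.46, -0.77 and 0.21 in Control rats and at -1.22, -0.68, 0.53, -0.00 and 0.82 in NMBA rats. It ranged from -0.31 to 0.59 in alpha rats, from 0.00 to 0.76 in delta rats and from 0.09 to 0.87 in gamma rats. NMBA rats thus held both the lowest and nearly the highest values of Ccnb1, and its differences from NMBA of 0.53 ± 0.30 in delta and 0.65 ± 0.30 in gamma rats did not pass (limma, adjusted p = 0.340 and 0.174).

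As a group, mitotic members lay higher in delta and gamma rats than in NMBA rats, with few calls. In delta rats 26 of 26 fitted differences were above 0, with a median of 0.40 and 4 at an unadjusted p under 0.05, where 5.76% of all genes were higher. In gamma rats 23 of 26 were above 0, with a median of 0.40 and 8 at an unadjusted p under 0.05, where 6.61% of all genes were higher. Over all genes 43.5% and 39.0% were above 0, with medians of -0.05 and -0.10. Such counts by sign were not among the planned results. Mitotic members also varied together across rats (mean r 0.66 over their pairs), so they are not independent in these counts. Uncalled members with the largest gamma differences after Hmmr and Bub1 were Aurkb, the kinase of the chromosomal passenger complex, at 1.11 ± 0.37 (limma, adjusted p = 0.061), the kinetochore protein Cenpf at 1.01 ± 0.35 (adjusted p = 0.0744) and Cdc20, an activator of the anaphase promoting complex, at 0.82 ± 0.34 (adjusted p = 0.128).

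The replication members did not share that pattern. Against NMBA, 8 of 16 were above 0 in delta rats (median -0.01) and 2 of 16 in gamma rats (median -0.18), the 2 being Tyms and Dut. In gamma rats 3 were lower at an unadjusted p under 0.05: Cdt1, a licensing factor, at -0.68 ± 0.24, Mcm7 at -0.52 ± 0.22, and Chek1, the checkpoint kinase of stalled forks, at -0.74. None passed (limma, adjusted p of Cdt1 = 0.0689), and 19.6% of all genes were lower at that unadjusted threshold. In alpha rats 8 of 16 replication members and 14 of 26 mitotic members were above 0, with medians of -0.00 and 0.05. With slide as a block the median over all 42 members moved from 0.02 to 0.62 in alpha rats, from 0.21 to 0.81 in delta rats and from 0.16 to 0.68 in gamma rats, with 0 members called. In that fit NMBA rat 5, alone on slide 4, adds nothing to the group differences. Its mean score over all members, 0.43, was the highest of the NMBA rats. Control rat 1, at -0.43, alone joins slide 3 to the tocopherol slides. Slide and these rats cannot be told apart in the shifts.

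**Figure D3:**
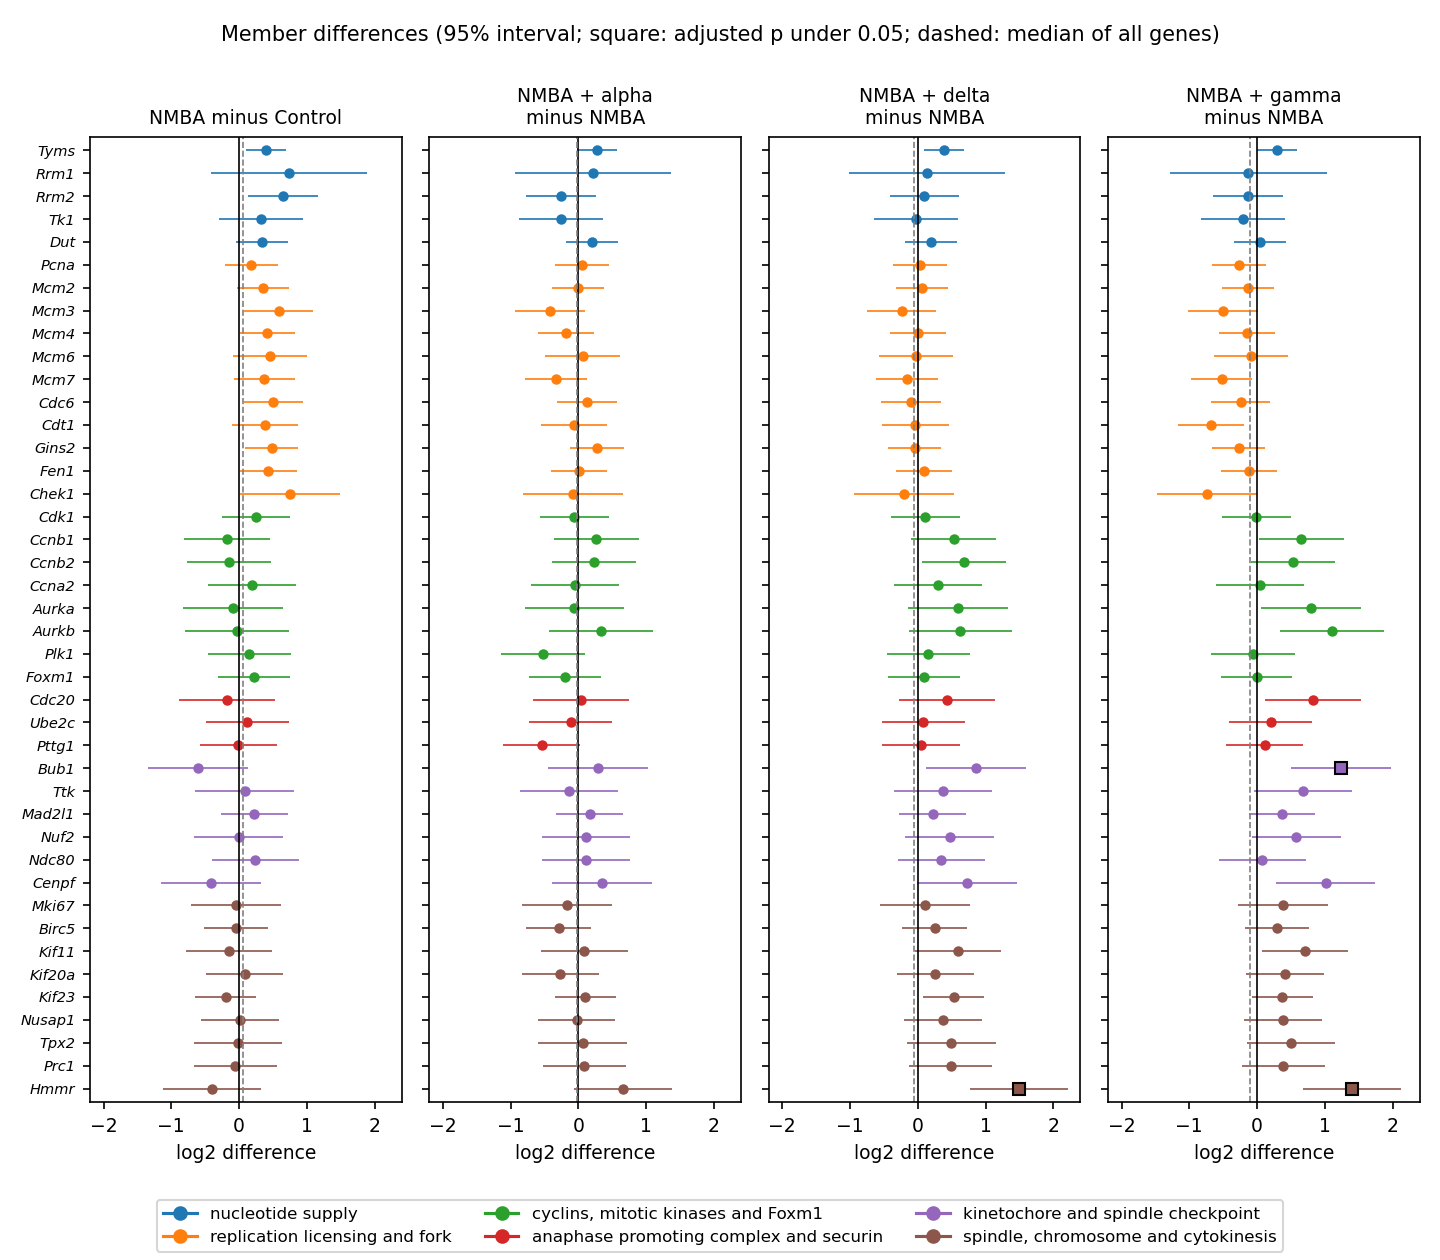
Fitted log2 difference of each of the 42 members (points; x axis, log2 units) with its 95% interval, for NMBA minus Control and each tocopherol group minus NMBA, ordered and coloured by role; squares passed an adjusted p of 0.05, and the dashed line is the median of all genes. In the NMBA panel all 16 replication members lie to the right of 0, and in the delta panel all 26 mitotic members do.

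Against NMBA, the mitotic pattern rested largely on a pair of NMBA rats. The mean score over the 26 mitotic members was -0.92 in NMBA rat 1 and -0.73 in rat 2, and 0.10, 0.13 and 0.43 in rats 3, 4 and 5. In the same rats 1 and 2 the score over the 16 replication members was 0.29 and 0.11, and its parts differed. Licensing and fork genes stood at 0.49 and 0.36, and nucleotide supply genes at -0.15 and -0.45. Without both rats, 13 of 26 mitotic members were above 0 for delta and 14 of 26 for gamma, and 0 members were called in either comparison. Without NMBA rat 1 alone, the counts were 22 and 19 of 26. The exclusion of both rats was chosen after the values were seen. Both had the lowest mitotic scores among NMBA rats, so their removal lowers these differences by construction. Against Control, which uses no NMBA rat, every mitotic member was above 0 in delta rats and in gamma rats, and none was called. By role these were 8 of 8, 3 of 3, 6 of 6 and 9 of 9 in each.

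Over the other groups, mitotic scores ran from -0.88 (rat 4) to 0.24 in Control rats, -0.67 (rat 3) to 0.49 (rat 4) in alpha rats, -0.05 to 0.45 in delta rats and 0.06 to 0.58 in gamma rats. Every gamma rat was above 0, but 3 Control rats and 3 NMBA rats were too. Replication scores ran from -0.63 to 0.02 in Control rats, -0.18 to 0.42 in NMBA rats, -0.50 to 0.49 in alpha rats, -0.05 to 0.29 in delta rats and -0.20 to 0.02 in gamma rats. Control rat 4 and alpha rat 3 were low in both, and alpha rat 4 and NMBA rat 5 high in both.

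**Figure D4:**
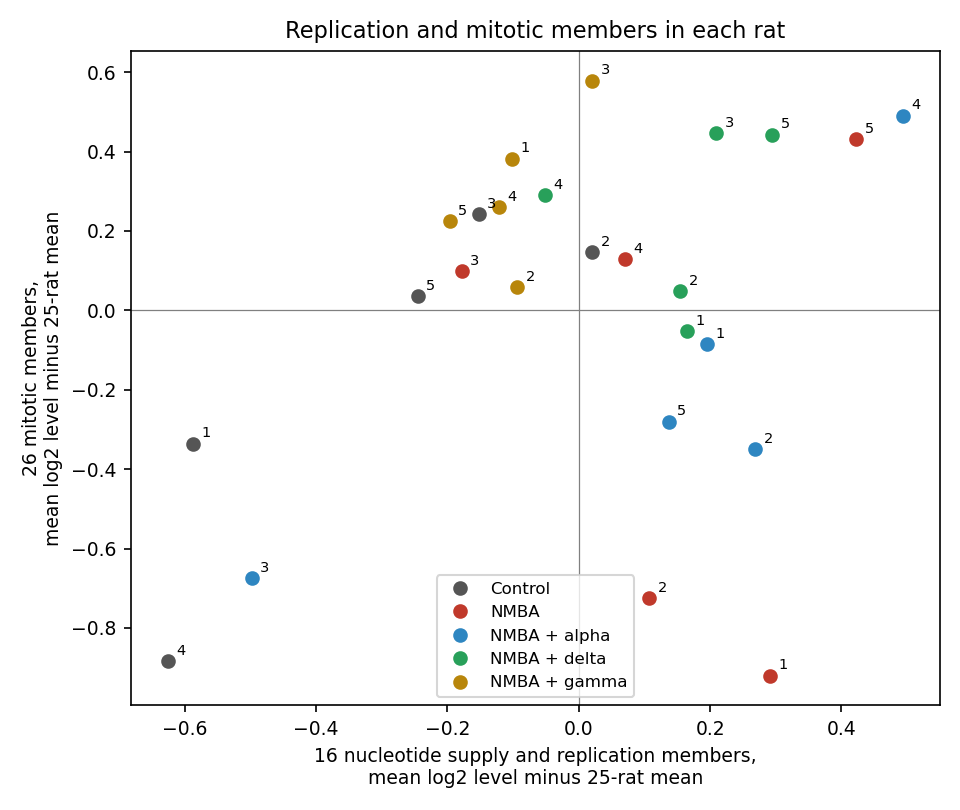
Mean of the 16 replication members (x axis) and of the 26 mitotic members (y axis) in each of the 25 rats, as log2 level minus the mean over 25 rats; colours are groups and numbers are rat numbers. NMBA rats 1 and 2 lie at -0.92 and -0.73 on the mitotic axis with replication values of 0.29 and 0.11, apart from the other rats.

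Other cell types differed between these rats too. Against NMBA, T and NK cell markers fell in 8 of 15 genes in delta rats and in 12 of 15 in gamma rats, with median differences of -1.33 and -1.32. Suprabasal and cornified keratinocyte markers fell in 1 of 9 and 6 of 9, with medians of -0.52 and -0.59, while 0 of 7 basal keratinocyte markers rose and 1 fell, in gamma rats. The suprabasal score ran from -0.09 to 0.38 in NMBA rats, -0.53 to 0.28 in delta rats and -0.70 to 0.46 in gamma rats. The fibroblast score was lowest in gamma rat 3 (-1.56) and NMBA rat 5 (-1.14), which had the highest mitotic scores of their groups. B and plasma cell, macrophage, endothelial, nerve and muscle markers had 0 calls in NMBA against Control. Against NMBA, 1 of 10 muscle markers rose in delta rats, and 1 of 2 B cell, 1 of 5 macrophage, 1 of 6 nerve and 1 of 9 fibroblast markers fell in gamma rats. The part of these markers in the mitotic differences was not tested.

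Rats that were high for one member tended to be high for others. With group means removed, the mean Pearson correlation over the 861 pairs of members, across 25 rats, was 0.42, against 0.025 over all pairs of genes tested, and it is given as a description since rats share slides. Within the mitotic members it was 0.66 (325 pairs), within the replication members 0.38 (120 pairs), and between them 0.25 (416 pairs). Without NMBA rats 1 and 2 these were 0.58, 0.42 and 0.38, so the gap between replication and mitotic members was smaller in the other 23 rats. With slide removed as well as group they were 0.66, 0.37 and 0.20.

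The mitotic role groups correlated with each other about as strongly as within themselves, at 0.61 to 0.71. Licensing and fork genes correlated with each other at 0.46 and with the mitotic role groups at -0.06 to 0.18. Nucleotide supply genes stood between, at 0.30 with licensing and fork genes and 0.41 to 0.53 with the mitotic role groups. The members that followed the mean of the other members most closely were Prc1, which bundles microtubules at the spindle midzone (r = 0.94), the spindle proteins Nusap1 and Tpx2 (0.92 both) and Cenpf (0.91). Mki67 stood at 0.83, Hmmr at 0.62, Tyms at 0.45 and Bub1 at 0.40, so the 3 called members were among those that followed the rest less closely. Cdt1 and Chek1 (-0.11 both) and Mcm2 (0.03) did not follow it.

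**Figure D5:**
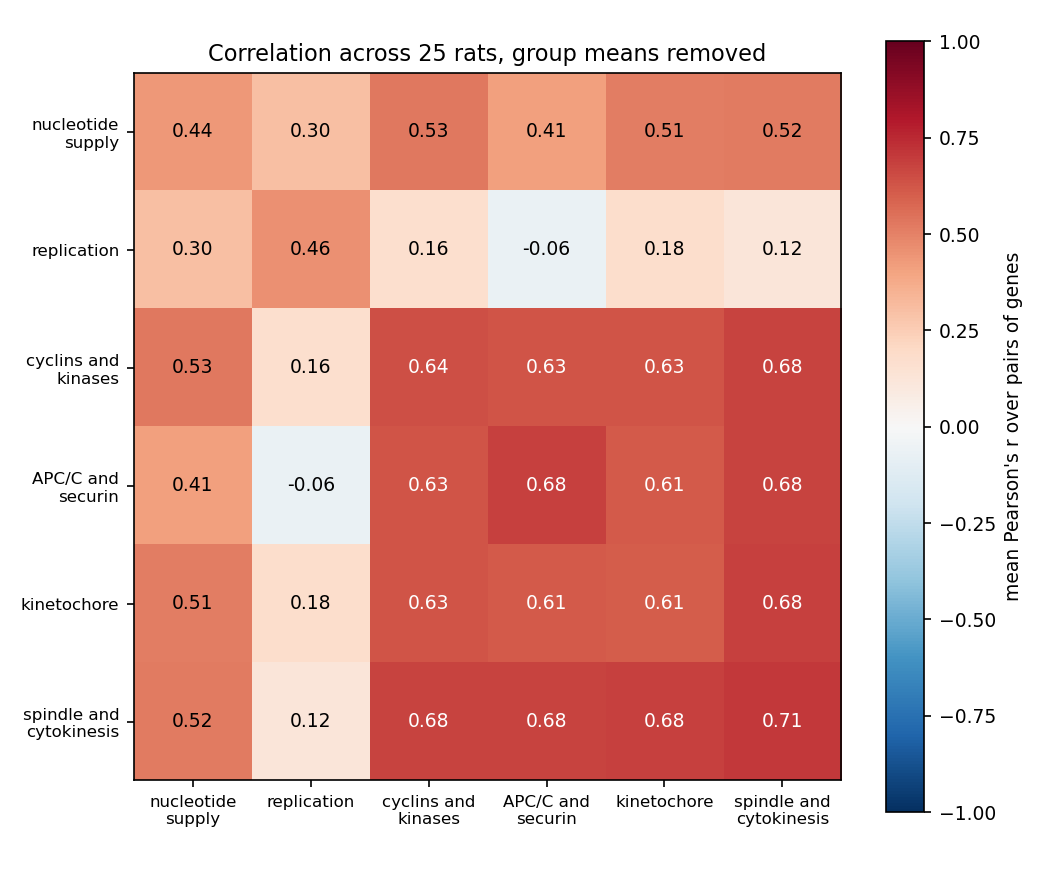
Mean Pearson's r over pairs of members within (diagonal) and between role groups, across 25 rats with group means removed; rows and columns are the 6 role groups. Values run from -0.06, for licensing and fork genes with the anaphase promoting complex genes, to 0.71 within spindle, chromosome and cytokinesis genes.

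Against Control, more members lay above 0 in delta and gamma rats. In delta rats 42 of 42 were above 0 (median 0.42) and in gamma rats 39 of 42 (median 0.33), against 46.1% and 42.2% of all genes, and in alpha rats 29 of 42 (median 0.10), against 50.9%. Members varied together across rats (mean r 0.42 over all pairs), so they are not independent in these counts. In gamma rats 8 members had no overlap with Control, Tyms and 7 mitotic members, where 3.36% of all genes had none. Aurkb differed by 1.07 ± 0.37, the checkpoint kinase gene Ttk by 0.76 ± 0.35, the mitotic kinase gene Aurka by 0.71 ± 0.36 and Cdc20 by 0.65 ± 0.34. None of these 4 passed (limma, adjusted p = 0.152, 0.25, 0.287 and 0.314). Fibroblast markers were lower in the same comparison, with a median difference of -0.79 and 0 of 9 called. Nerve and Schwann cell markers were lower as well, with a median of -1.0, 5 of 6 at an unadjusted p under 0.05 and 1 of 6 called. Their part in these differences was not tested.

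Between the tocopherol groups no member was called in any of the 3 pairs. In delta against alpha rats 0% of all genes were called, in gamma against alpha rats 1.62%, and in gamma against delta rats 0%. At an unadjusted p under 0.05, 4 members were higher in delta than alpha rats (1.81% of all genes). In gamma rats 9 were higher and 2 lower than in alpha rats (4.53% and 10.1% of all genes), and 1, Cdt1, was lower than in delta rats, at -0.65 ± 0.24 (2.69% of all genes). The Hmmr difference was 0.84 for delta minus alpha (95% interval 0.12 to 1.57), 0.74 for gamma minus alpha (0.02 to 1.46) and -0.10 for gamma minus delta (-0.83 to 0.62). For Tyms these were 0.11 (-0.19 to 0.40), 0.02 (-0.27 to 0.31) and -0.09 (-0.38 to 0.21). The 95% intervals of members reached a median of 0.59 log2 units to either side, and they are not adjusted over all genes. Differences of that size or larger could be missed, and that of 0.84 for Hmmr was not called. The labels do not say whether doses were matched. Without alpha rat 4, the highest for Hmmr and Bub1, 3 members were called in gamma against alpha rats, Aurka, Bub1 and Hmmr. Without alpha rat 3, Gins2 was called.

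Some members were measured by several probes. Of the 9 with more than 1 kept probe, the probes of 2 differed in sign for NMBA minus Control, those of 4 for alpha minus NMBA, of 0 for delta minus NMBA and of 4 for gamma minus NMBA. Besides Mki67, both probes of Prc1 gave 0.49 and 1.28 for delta minus NMBA. Mcm2 gave 0.35 and 0.33 for NMBA minus Control, and Mcm3 0.58 and 0.60. Tyms, Hmmr and Bub1 had 1 kept probe each.

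Around the members, 108 other cell cycle genes were listed and 84 tested, and 6 of them passed the test of any difference among groups. That is close to the 7% of all genes that passed. Of 13 cell cycle inhibitor and exit genes, 3 rose in NMBA against Control, where 1.55% of all genes were called; 8 of the 13 were above 0, and their median of 0.06 was near the 0.05 of all genes. Cdkn1a (p21) rose by 0.79 ± 0.14 (limma, adjusted p = 0.00427), Cdkn2a, which encodes p16 and ARF, by 2.23 ± 0.54 (adjusted p = 0.0344) and the antiproliferative gene Btg2 by 0.69 ± 0.15 (adjusted p = 0.0173). Ccne1, the cyclin E of S phase entry, rose by 1.20 ± 0.30 (adjusted p = 0.0435), 1 of 18 genes of G1 to S cyclins, Cdks and the E2F-Rb pathway, of which 13 were above 0. Ccnd1 (cyclin D1) was at 0.27 ± 0.17 and E2f1 at 0.31 ± 0.21, and neither passed. Ccne1 also rose in alpha rats against Control, by 1.35 ± 0.30 (adjusted p = 0.0337), as did E2f3, by 0.93 ± 0.19 (adjusted p = 0.0201). No slide held both alpha and Control rats. Of the 10 ways of leaving out 1 rat of the groups compared, 0 ended the call of Cdkn1a, 3 that of Btg2, 6 that of Ccne1 and 8 that of Cdkn2a in NMBA against Control, and 7 that of Ccne1 and 2 that of E2f3 in alpha rats. Without both NMBA rats 1 and 2, Cdkn1a still passed in NMBA against Control (limma, adjusted p = 0.00815), and Btg2 (0.0786), Ccne1 (0.268) and Cdkn2a (0.125) did not, with adjusted p in brackets.

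In gamma rats against NMBA, Dbf4, the activator of the kinase that fires origins, rose by 1.51 ± 0.36 (limma, adjusted p = 0.0111), and Cdca8, a chromosomal passenger subunit, by 1.0 ± 0.28 (adjusted p = 0.0277). Rb1 rose by 0.59 ± 0.16 (adjusted p = 0.0237) and Parpbp by 1.69 ± 0.52 (adjusted p = 0.0445). Parpbp was well above background in 2 of 5 NMBA rats and 5 of 5 gamma rats. Cdc25a, a phosphatase that activates Cdks, fell by 0.43 (adjusted p = 0.0496), and Rfc3, of the clamp loader, fell by 0.51 (adjusted p = 0.0451). With slide as a block the log2 differences of Cdc25a and Rfc3 changed sign, to 0.0200 and 0.0475, and neither passed (limma, adjusted p = 0.998 both). Leaving out 1 rat ended the call of Dbf4 in 0 of 10 ways, of Cdca8 and Rb1 in 4 each, of Cdc25a and Rfc3 in 7 each and of Parpbp in 8. No slide held both gamma and NMBA rats, and leaving out rats does not separate slide from group. Without both NMBA rats 1 and 2 none of the 6 passed: Dbf4 stood at 1.18 (limma, adjusted p = 0.141), Cdca8 at 0.59 (0.312), Parpbp at 0.79 (0.449), Rb1 at 0.48 (0.208), Cdc25a at -0.32 (0.325) and Rfc3 at -0.50 (0.191), with adjusted p in brackets. Of 26 other mitosis genes, 23 were above 0 in delta and 19 in gamma rats against NMBA, with 0 and 1 called. Of 27 other replication genes, 20 and 12 were above 0, with 0 called in delta and 3 called in gamma rats, 2 higher and 1 lower. In gamma rats 6 of the 84 genes were called, where 8.95% of all genes were. In delta rats Dbf4 differed by 1.27 ± 0.36 (adjusted p = 0.0544).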

How the data were processed

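The deposited scanner files hold 1-colour (Cy3) fluorescence intensity, background-subtracted and not normalized between arrays per the file headers, which name Agilent Feature Extraction 11.5.1.1 where the submitters' processing notes name 10.7. The deposited value table, on a log2 scale, followed the same signals. Outlier spots were dropped, log2 signals of a probe's spots averaged, and each array's 75th percentile subtracted. Among the kept probes of a gene, that with the highest mean was used. Array names come from RefSeq accessions, matched to the GRCr8 table. Groups were taken from the labels, and limma 3.58.1 estimated 5 group means over the 25 arrays (20 residual and 3.09 prior degrees of freedom), two-sided, with Benjamini-Hochberg adjustment over 12343 genes within each of 10 contrasts at 0.05. No column lay outside the series (0 columns). Alternatives were normexp background, quantile scaling, other filters, mean of probes, slide or replicate number as a block, pairs of groups, the deposited table and leaving out rats. The fits were tested on simulated data. The labels do not say whether rats shared a cage or day. Named members were those called, 10 chosen markers, and the extremes of each role group. Cell type lists were of T and NK cells, B cells, macrophages, fibroblasts, muscle, endothelium, nerve and basal and suprabasal keratinocytes. Members, role groups and lists were chosen with earlier results of these data known.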

Additional observations from a re-analysis of the deposited data

Results flagged for a closer look

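In 3 of 80 sets of 5 rats checked, 1 rat stood apart from the other 4 of its group by Dixon's test, which chance alone gives in about 1 in 20 sets. Alpha rat 4 stood at -0.98 for Tyms, where the other alpha rats lay between -1.62 and -1.47. The same rat stood at -0.38 for Bub1, where the others lay between -2.29 and -1.91. Control rat 4 stood at -4.91 for Hmmr, where the others lay between -4.10 and -3.89.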

How the results depend on the processing

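With slide as a block, 0 members were called in any comparison or in the test among 5 groups, and the member median was 0.62, 0.81 and 0.68 for alpha, delta and gamma minus NMBA, 0.46 and 0.73 for alpha and delta minus Control, and -0.06 for NMBA minus Control; the log2 differences of Cdc25a and Rfc3 in gamma minus NMBA turned from -0.43 and -0.51 to 0.0200 and 0.0475, not past the test. In the slide block fit NMBA rat 5, alone on slide 4, adds nothing to the differences, and Control rat 1 alone joins slide 3 to the tocopherol slides. With slide as a random block (correlation -0.031), 5 members passed in gamma minus NMBA and 2 in alpha minus Control. With normexp background, 2 members passed in alpha minus Control (Gins2 and Tyms) and 2 in delta minus Control (Hmmr and Tyms). With no filter on dim probes 5 passed in gamma minus NMBA. In the main fit 8.95% of all genes passed in gamma minus NMBA, 0.818% in alpha minus Control and 0.194% in delta minus Control. The shares of all genes in these alternative fits are not given here, so the member counts cannot be set against them. From pairs of groups alone, 0 passed in alpha, delta or gamma minus Control and 1 in gamma minus NMBA (Hmmr). Without both NMBA rats 1 and 2, an alternative added after seeing the data, 0 passed in delta or gamma minus NMBA and 1 among 5 groups (Tyms), and 13 and 14 of 26 mitotic members were above 0. Leaving out single rats, members called ranged from 0 to 2 in alpha minus Control and in delta minus NMBA, from 0 to 4 in gamma minus NMBA, from 0 to 3 in gamma minus alpha, from 0 to 1 in NMBA, delta and gamma minus Control, and from 1 to 3 among 5 groups. Replicate numbers did not pair the rats (mean correlation of same-number rats -0.050 over 50 pairs, of others 0.014 over 200); with the replicate number as a block, 0 members passed in alpha and gamma minus Control and 1 among 5 groups (Tyms). Quantile scaling, the deposited table and the mean of probes left each of these member counts within 1.5 times. The number of rats limits precision, and Rrm1, Chek1 and Parpbp were near background on some arrays.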
